A study of Mus musculus with 4 samples.

Results

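The annexin, S100, galectin and vimentin genes described here are 10 genes, *Vim*, *Anxa1*, *Anxa2*, *Anxa5*, *Anxa6*, *S100a4*, *S100a6*, *S100a10*, *S100a11* and *Lgals1*, of 55359 genes counted by bulk RNAseq. They were selected on their counts in the contrast of IRF4-RV against EV-RV, with its log2 fold changes already known, so those values are given as a description and no p-value is attached to them. All 10 passed the filter on low counts that left 14637 genes for the fit. The cells were T8, a B-cell progenitor acute lymphoblastic leukemia line established from 1 primary tumor of an Irf4-/- mouse, which also carries a *Jak3* mutation. T8 cells were transduced with a retrovirus coding for GFP alone (EV-RV) or for GFP plus IRF4 (IRF4-RV), and RNA was taken from still viable cells 24 h later. Each group holds 2 libraries, replicates 1 and 2, and nothing in the labels says whether these were separate transductions, so the spread between them may be technical. The line was first grown on a layer of irradiated ST2 stromal cells with IL-7 and later without that layer. The labels' culture text names T11 cells, whereas the titles and the tissue field name T8, and the libraries were used as T8.

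Annexins bind phospholipid membranes when calcium is present and take part in membrane repair, vesicle traffic and anchoring of the actin cortex. S100 proteins are small EF-hand calcium sensors that work as dimers, and several of them bind annexins. S100A10, which has lost calcium binding, pairs with annexin A2, and S100A11 pairs with annexin A1. Galectin-1, the product of *Lgals1*, is a lectin for β-galactoside sugars which, when released by bone marrow stromal cells, binds the λ5 chain of the pre-B cell receptor. Vimentin is the intermediate filament protein of mesenchymal cells and of many lymphocytes.

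The libraries held between 31230223 and 37817752 counts, and the floor of 3 counts was worth 0.0824 to 0.0952 CPM, a count scaled to the size of its library, which covers counting error only. *Irf4*, the gene carried by the IRF4-RV vector, held 8070 and 7600 counts in the EV-RV libraries. In the IRF4-RV libraries it held 95578 and 90693, in the direction of the labels. The source of the *Irf4* counts with EV-RV, in Irf4-/- cells whose vector codes for GFP alone, was not tested. Of the 14637 genes tested with edgeR at a false discovery rate (FDR) of 0.1, 29.7% differed between the groups, 16% higher and 13.7% lower with IRF4-RV. This is the background for every count below. With library size alone in place of TMM scaling, 1743 genes were higher and 2867 lower, against 2340 and 2009 with TMM, and the median gene shifted on the log2 scale from 0.007 to -0.083. Defining B-lineage genes were present, with *Cd79a* between 906 and 922 CPM and *Cd79b* between 290 and 293 CPM in each library, while *Rag1* and *Rag2* had at most 1 count.

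Of the 10 genes, 4 were past the FDR cutoff and higher with IRF4-RV (*Vim*, *S100a10*, *Anxa6* and *Anxa5*) and 0 were past it and lower. These same 4 genes were those whose groups did not overlap. The share of all genes tested without overlap was not counted, so nothing is read from this. In the partner lists below it was 2 of 10 tested vimentin partners and 12 of 14 tested galectin ligand and glycan genes. The median log2 fold change over the 10 genes was 0.96, against 0.007 over all genes tested. That median falls between *S100a6* (0.95, standard error 0.713) and *S100a4* (0.96, standard error 0.997), whose groups overlapped. Since the genes were chosen with these values known, nothing is read from this median. The same holds for the share of 4 of 10 against the 16% of all genes.

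The genes fell into sets that differ in how the replicates of a group compare. *Vim*, *S100a10*, *Anxa6* and *Lgals1* were close between replicates. *Anxa2*, *S100a6*, *S100a11* and *S100a4* were higher in replicate 2 than in replicate 1 of each group, and highest in IRF4-RV replicate 2. *Anxa1* and *Anxa5* were higher in IRF4-RV replicate 2 than in IRF4-RV replicate 1, and not in the EV-RV pair. In the plot of levels by gene and library, the 4 genes at the left have filled symbols at nearly the same height, and the others do not.

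**Figure D1:**
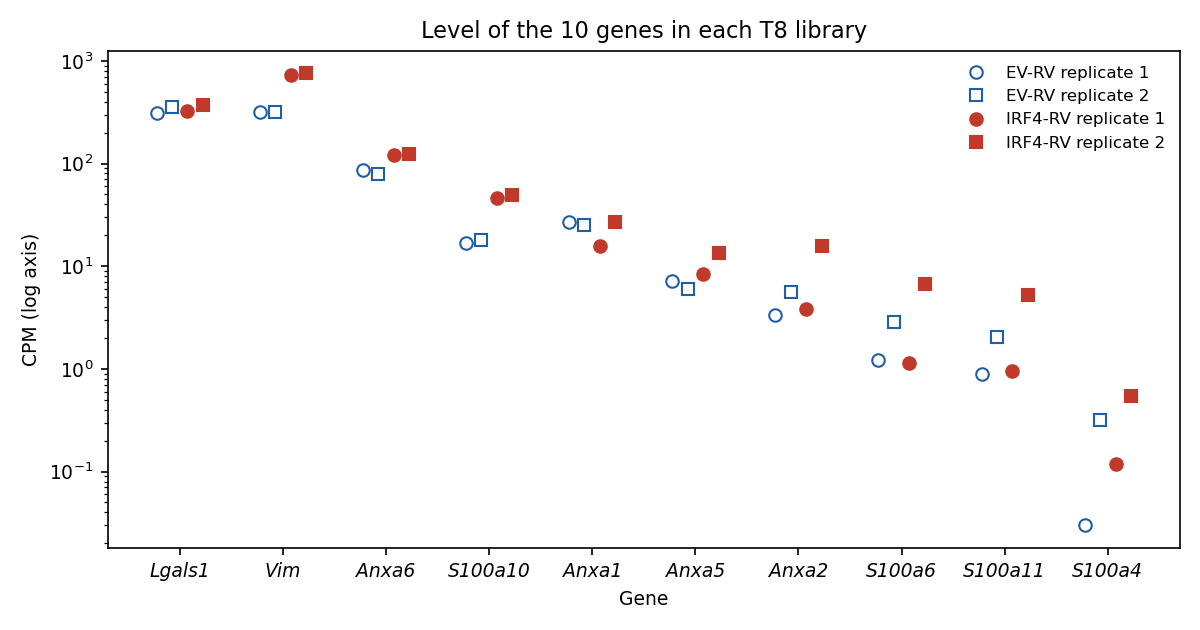
CPM (vertical log axis) of the 10 genes (horizontal axis) in the 4 T8 libraries, with EV-RV open, IRF4-RV filled, replicate 1 as circles and replicate 2 as squares. *Vim*, with 721 and 756 CPM in the IRF4-RV libraries and 318 and 315 in the EV-RV libraries, separates by group, whereas *S100a6*, with 6.73 CPM in IRF4-RV replicate 2 and 1.15 in IRF4-RV replicate 1, separates by library.

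*Vim* (ENSMUSG00000026728, chromosome 2 of GRCm38, plus strand, 13573927 to 13582826) had 318 and 315 CPM in EV-RV replicates 1 and 2 and 721 and 756 CPM in IRF4-RV replicates 1 and 2. Each IRF4-RV library was above each EV-RV library, and replicates differed far less than groups. The EV-RV mean was 317 ± 1.95 CPM (SD, n = 2), and the IRF4-RV mean of 739 ± 24.3 CPM (SD, n = 2) was higher by a log2 fold change of 1.22 (standard error 0.0715). Within replicate 1 the IRF4-RV library held 2.27 times the EV-RV level and within replicate 2 2.4 times. In these bulk samples a change in the number of cells of a type cannot be told apart from a change in RNA per cell.

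*S100a10* (ENSMUSG00000041959, chromosome 3, plus strand, 93555080 to 93564643), the partner chain of annexin A2, had 16.7 and 17.9 CPM with EV-RV and 46.2 and 49.7 CPM with IRF4-RV. The groups did not overlap. Its log2 fold change of 1.47 (standard error 0.0952) was the highest of the 10 genes, and the folds within replicates 1 and 2 were 2.76 and 2.78. *Anxa2*, which codes for the other chain of that complex, did not share this pattern.

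*Anxa6* (ENSMUSG00000018340, chromosome 11, minus strand, 54979108 to 55033445) codes for the annexin with a doubled core. Its levels were 86.2 and 79.7 CPM with EV-RV and 121 and 123 CPM with IRF4-RV. The groups did not overlap, with a log2 fold change of 0.55 (standard error 0.0779), and the change was smaller than that of *Vim* or *S100a10*. Within replicates 1 and 2 the IRF4-RV library held 1.41 and 1.54 times the EV-RV level.

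*Lgals1* (ENSMUSG00000068220, chromosome 15, plus strand, 78926725 to 78930465) had 314 and 357 CPM with EV-RV and 323 and 370 CPM with IRF4-RV. The groups overlapped, and the gap between replicates was larger than the gap between groups. The log2 fold change was 0.05 (standard error 0.0969), and with library size alone its sign turned, to -0.04.

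*Anxa5* (ENSMUSG00000027712, chromosome 3, minus strand, 36448923 to 36475894), whose protein binds phosphatidylserine and is the usual stain for apoptotic cells, had 7.19 and 5.96 CPM with EV-RV and 8.47 and 13.5 CPM with IRF4-RV. The groups did not overlap, but IRF4-RV replicate 2 stood well above the other 3 libraries. The log2 fold change of 0.74 (standard error 0.223) fell to 0.37 without IRF4-RV replicate 2 and to 0.62 without EV-RV replicate 2, and in neither case was it past the FDR cutoff. Without IRF4-RV replicate 1 it was 1.02.

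*Anxa1* (ENSMUSG00000024659, chromosome 19, minus strand, 20373428 to 20390944), the partner of S100A11 and a ligand of formyl peptide receptors, had 27 and 25 CPM with EV-RV and 15.8 and 27.1 CPM with IRF4-RV. IRF4-RV replicate 1 was the lowest library and IRF4-RV replicate 2 the highest, so the groups overlapped. The log2 fold change was -0.28 (standard error 0.217). It was -0.71, past the FDR cutoff, without IRF4-RV replicate 2 and 0.04, not past it, without IRF4-RV replicate 1. The formyl peptide receptor genes *Fpr1* and *Fpr2* had 0 counts in each library.

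*Anxa2* (ENSMUSG00000032231, chromosome 9, plus strand, 69453620 to 69491795) had 3.33 and 5.55 CPM with EV-RV and 3.81 and 15.7 CPM with IRF4-RV. *S100a6* (ENSMUSG00000001025, chromosome 3, plus strand, 90612882 to 90624181), which codes for calcyclin, had 1.23 and 2.89 CPM with EV-RV and 1.15 and 6.73 CPM with IRF4-RV. *S100a11* (ENSMUSG00000027907, chromosome 3, plus strand, 93520488 to 93526287) had 0.899 and 2.06 CPM with EV-RV and 0.945 and 5.19 CPM with IRF4-RV. In all 3 genes the replicate 1 libraries of the groups lay close to each other and the replicate 2 libraries were higher.

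*S100a4* (ENSMUSG00000001020, chromosome 3, plus strand, 90603771 to 90606045), which codes for a protein that binds non-muscle myosin, had 1 and 10 counts in the EV-RV libraries and 4 and 20 in the IRF4-RV libraries. It followed the same order, at a depth where counting error alone is large. The log2 fold changes were 1.14 (standard error 0.563) for *Anxa2*, 0.95 (standard error 0.713) for *S100a6*, 1.06 (standard error 0.706) for *S100a11* and 0.96 (standard error 0.997) for *S100a4*. The groups overlapped in these 4 genes, and none was past the FDR cutoff. Without IRF4-RV replicate 2 the log2 fold changes were -0.21, -0.83, -0.64 and -0.52 in the same order, so the direction rested on that library. Without IRF4-RV replicate 1 they were 1.80, 1.69, 1.79 and 1.64, and the first 3 passed the cutoff.

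The 100 bases before the annotated start of these 4 genes are printed because the genes varied together between libraries. They are from RefSeq promoters (GRCm38.p6), 5′ to 3′ on the strand of the gene, with capitals marking the TATA box TATAAA, the SP1 box GGGCGG or the AP-1 element TGANTCA on either strand, letters chosen after the data were seen. The stretches are chr9:69453520-69453619 for *Anxa2*, chr3:90603671-90603770 for *S100a4*, chr3:90612782-90612881 for *S100a6* and chr3:93520388-93520487 for *S100a11*, all on the plus strand and free of annotated exons.
Anxa2: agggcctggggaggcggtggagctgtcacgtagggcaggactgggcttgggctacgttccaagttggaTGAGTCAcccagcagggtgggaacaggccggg
S100a4: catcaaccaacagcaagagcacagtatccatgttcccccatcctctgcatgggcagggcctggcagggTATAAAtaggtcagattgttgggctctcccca
S100a6: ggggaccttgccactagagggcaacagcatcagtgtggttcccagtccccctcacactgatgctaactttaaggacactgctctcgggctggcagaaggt
S100a11: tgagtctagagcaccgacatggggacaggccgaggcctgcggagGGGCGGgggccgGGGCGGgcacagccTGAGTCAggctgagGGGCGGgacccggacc

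A TGAGTCA element lies 32 bases before the start of *Anxa2* and 30 bases before that of *S100a11*, TATAAA lies 32 bases before that of *S100a4*, and *S100a11* has GGGCGG at 56, 44 and 16 bases. The stretch of *S100a6* holds none of these letters. Among 32817 RefSeq promoter stretches of 100 bases before the RefSeq start, TGANTCA was found in 2.73%, TATAAA in 5.57% and GGGCGG in 24.7%. The RefSeq start of *Anxa2* lies 63 bases further on, and the 100 bases before it hold TATAAA 1 time and GGGCGG 2 times beside the TGANTCA, so what is found depends on the start used. The starts of the other 3 genes differ by 1 to 12 bases, and the kinds and numbers of matches before them were the same with either start. Before the RefSeq starts of *Vim* and *Anxa1*, whose stretches are not printed, TATAAA was found 1 time each. Motifs that IRF4 is known to bind, alone or with ETS or AP-1 factors, were searched on both strands in the whole RefSeq promoter windows of the 7 genes that have one (*Vim*, *Anxa1*, *Anxa2*, *Anxa5*, *S100a4*, *S100a6* and *S100a11*). GAAANNGAAA (the ISRE), GGAANNGAAA (the EICE) and the AICE forms TTTCNNNNTGANTCA and GAAATGANTCA were matched in 0 of the 7, and in 3.43%, 2.72%, 0.119% and 0.125% of all windows. A match is a run of letters, and its absence says only that these letters are not in the window. *Anxa6*, *S100a10* and *Lgals1* had no entry.

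The order of these libraries was also that of genes that mark stromal cells and fibroblasts. The summed level of 14 such markers, among them the collagens *Col1a1*, *Col1a2* and *Col3a1*, fibronectin *Fn1* and the chemokine *Cxcl12*, was 98.6 and 184 CPM with EV-RV and 101 and 430 CPM with IRF4-RV. IRF4-RV replicate 2 was highest and the replicate 1 libraries were close to each other. *Fn1*, the most abundant, had 31.8 and 54.8 CPM with EV-RV and 35 and 125 CPM with IRF4-RV. *Dcn* and *Lum* had between 0 and 0.0591 CPM in each library. Of the 14, 11 were tested and 0 passed the FDR cutoff, with a median log2 fold change of 0.90.

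The ratio of replicate 2 to replicate 1 was 1.67 with EV-RV and 4.12 with IRF4-RV for *Anxa2*. For *S100a6* these ratios were 2.35 and 5.84, and for *S100a11* 2.29 and 5.49. The 12 stromal markers with over 3 counts in each library had ratios of 1.59 to 2.71 with EV-RV and 2.98 to 6.39 with IRF4-RV. Among all genes tested, the IRF4-RV ratio exceeded 3 in 2.43% (355 of 14625), and its median was 0.999. *Vim* (0.991 and 1.05), *S100a10* (1.07 and 1.08), *Anxa6* (0.925 and 1.01) and *Lgals1* (1.14 and 1.15) had ratios near 1.

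**Figure D2:**
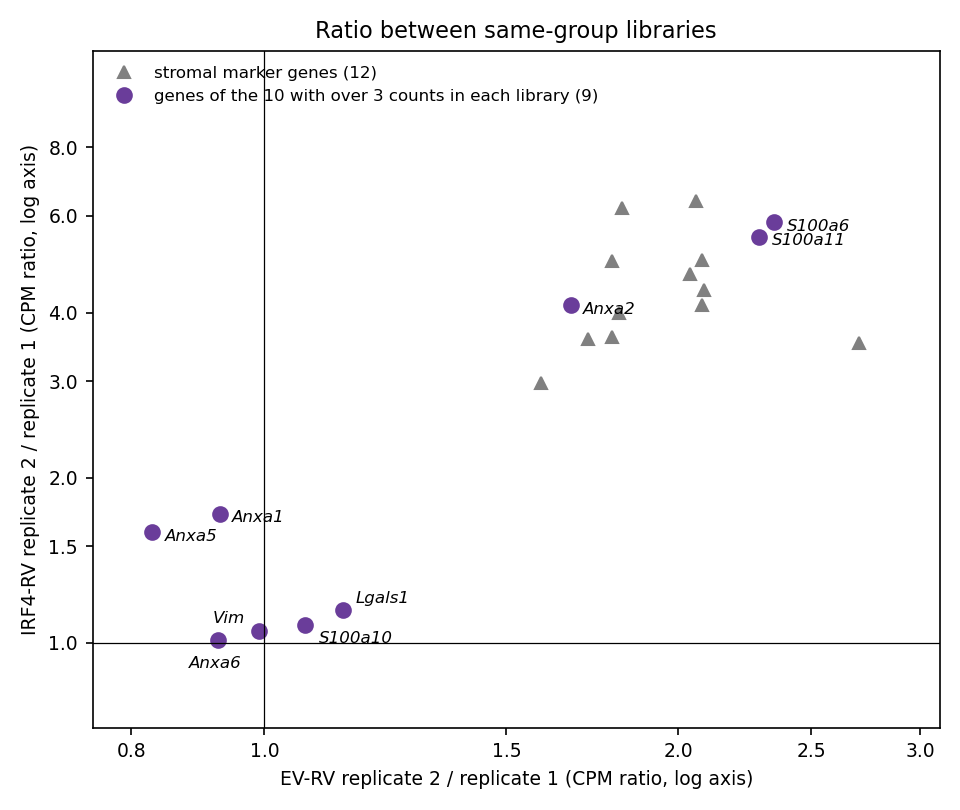
CPM ratio of replicate 2 to replicate 1 within EV-RV (horizontal) and within IRF4-RV (vertical), both on log axes, for 9 of the 10 genes and 12 stromal markers with over 3 counts in each library. *Anxa2*, *S100a6* and *S100a11* lie in the region of the stromal markers, at IRF4-RV ratios of 4.12 to 5.84, and *Vim*, *S100a10*, *Anxa6* and *Lgals1* near 1 on each axis.

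Set against the summed stromal markers, *Anxa2* stayed at 0.0337 and 0.0302 of that sum with EV-RV and at 0.0379 and 0.0365 with IRF4-RV. *S100a6* stayed between 0.0115 and 0.0157 of it and *S100a11* between 0.00912 and 0.0121. By contrast, *Vim* was at 3.23 and 1.72 times that sum with EV-RV and at 7.17 and 1.76 times with IRF4-RV. It held no steady share. *S100a4*, at low counts, ranged from 0.000304 to 0.00173 of the sum. *Anxa5* ranged from 0.0314 to 0.0843 of it and *Anxa1* from 0.0631 to 0.274, so neither held a steady share. *Lgals3*, which codes for galectin-3 and was singled out after its values were seen, was between 0.00705 and 0.0076 of the sum in the 4 libraries. The part of stromal RNA in the values of any of the genes described here, *Vim* and *Lgals1* included, was not tested.

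Within replicate 1 alone, with 1 library per group and no test, the log2 ratio of IRF4-RV to EV-RV was 1.18 for *Vim*, 1.46 for *S100a10* and 0.49 for *Anxa6*. Within replicate 2 these ratios were 1.26, 1.48 and 0.62. For the genes with uneven replicates the same ratios were 0.20 and 1.50 for *Anxa2*, -0.09 and 1.22 for *S100a6* and 0.07 and 1.33 for *S100a11*. The summed stromal markers gave 0.03 and 1.22. *Vim*, *S100a10* and *Anxa6* were thus higher with IRF4-RV within each replicate number. Nothing in the labels says that same-numbered libraries belong together. The part of stromal RNA in these values was not tested.

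**Figure D3:**
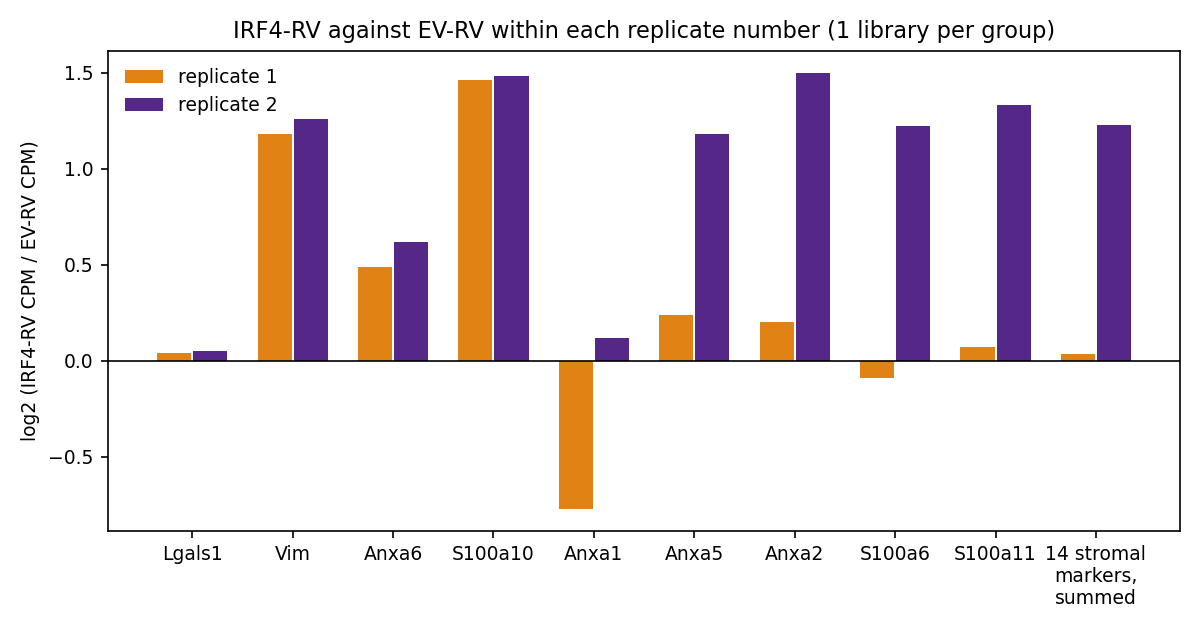
Log2 ratio of IRF4-RV to EV-RV CPM (vertical axis) within replicate 1 (orange) and replicate 2 (purple), 1 library per group, for 9 of the 10 genes and for 14 stromal markers summed. *Vim*, *S100a10* and *Anxa6* have bars of similar height in each replicate, while *Anxa2*, *S100a6*, *S100a11* and the stromal sum (0.03 and 1.22) are near 0 in replicate 1 and above 1 in replicate 2.

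The 14 myeloid markers summed to 7.43 and 6.95 CPM with EV-RV and 5.43 and 5.19 CPM with IRF4-RV, with *Lyz2* at 1 count or 0 and *S100a8* and *S100a9*, the calprotectin genes, at 0 in each library. *Fcgr3* made up most of that sum with EV-RV and fell (log2 fold change -1.45, edgeR adjusted p = 0.000952). *Ly6g* rose from 1 and 0 counts to 71 and 58 counts (edgeR adjusted p = 0.000512). With IRF4-RV *Fcgr3* was at 2.33 and 2.31 CPM and *Ly6g* at 2.1 and 1.59 CPM. The 10 markers of T and NK cells summed to 19.8 and 20.4 CPM with EV-RV and 12.9 and 13.3 CPM with IRF4-RV. That sum was nearly all *Trac*, at 18.4 and 19.1 CPM and then 11.5 and 11.5 CPM, with *Cd8a*, *Cd8b1* and *Ncr1* at 0 counts in each library and *Cd3d*, *Cd3e*, *Cd3g* and *Cd4* at 5 counts or fewer. The 6 erythroid markers summed to 12.2 and 13.2 CPM with EV-RV and to 13.8 and 15.9 CPM with IRF4-RV, highest in IRF4-RV replicate 2 like the stromal sum but over a far smaller range, and 0 of the 3 tested passed the cutoff. The 13 B-progenitor markers summed to 4316 and 4551 CPM with EV-RV and to 3175 and 3145 CPM with IRF4-RV, 4 of the 11 tested being lower and 2 higher. The 6 plasma cell markers, *Irf4* among them, summed to 382 and 405 CPM with EV-RV and to 3056 and 2754 CPM with IRF4-RV. *Irf4*, the gene of the IRF4-RV vector, made up 242 and 241 CPM of this sum with EV-RV and 2822 and 2491 CPM with IRF4-RV. *Xbp1* rose (log2 fold change 0.82, edgeR adjusted p = 0.000945), *Prdm1* rose (log2 fold change 2.13, edgeR adjusted p = 0.0115) and *Sdc1*, which codes for syndecan-1, fell (log2 fold change -0.81, edgeR adjusted p = 0.00813).

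Levels were set side by side between genes only per length, as CPM per kilobase of annotated exon (RPKM). With EV-RV, *Lgals1* led with 371 ± 33.5 RPKM (SD, n = 2), above 98.7% of the genes tested, and *Vim* followed with 66.8 ± 0.411 RPKM. *Anxa6* (28.3 ± 1.55 RPKM), *S100a10* (14.3 ± 0.661 RPKM) and *Anxa1* (8.93 ± 0.474 RPKM) came next, each without overlap with its neighbours in the order. *Anxa5* (3.7 RPKM), *S100a11* (2.9 RPKM), *S100a6* (1.51 RPKM) and *Anxa2* (1.19 RPKM) each overlapped their neighbour within this run, and *S100a4* was lowest at 0.297 RPKM, without overlap with *Anxa2*. The EV-RV libraries thus held far more RNA for galectin-1 and vimentin than for annexin A2, and more for *S100a10* than for its partner *Anxa2*. With IRF4-RV the order of mean levels was the same, *Vim* reached 156 ± 5.12 RPKM (SD, n = 2), and *S100a10* at 39.5 ± 2.05 RPKM came close to *Anxa6* at 41.6 ± 0.327 RPKM.

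On chromosome 3 the S100 genes stand in a broad cluster, in which *S100a4* and *S100a6* lie 6.84 kb apart and *S100a11* and *S100a10* 28.8 kb apart. Between *S100a6* and *S100a11* lie 2900 kb, so the cluster is not a single tight run. Of the 14 genes in this order, *S100a3*, *S100a5*, *S100a7a*, *S100a8* and *S100a9* had 0 counts in each library, and *S100a2* and *S100a14* had at most 3. *S100a13*, at 12.4 and 18 CPM with EV-RV and 19.1 and 23.3 CPM with IRF4-RV, did not overlap between groups but missed the cutoff narrowly (log2 fold change 0.48, edgeR adjusted p = 0.102). It passed with DESeq2 (adjusted p = 0.0676), without EV-RV replicate 2 (log2 fold change 0.77) and without IRF4-RV replicate 1 (0.59), and was 0.22 without EV-RV replicate 1. *S100a1* had 10 and 15 counts in the EV-RV libraries and 12 and 44 in the IRF4-RV libraries (edgeR adjusted p = 0.305). *S100a16* had 4 and 27 counts in the EV-RV libraries and 9 and 35 in the IRF4-RV libraries (edgeR adjusted p = 0.817). Both were highest in IRF4-RV replicate 2. *S100a10* was the one S100 gene of the cluster past the cutoff, while *S100a11* beside it was not.

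**Figure D4:**
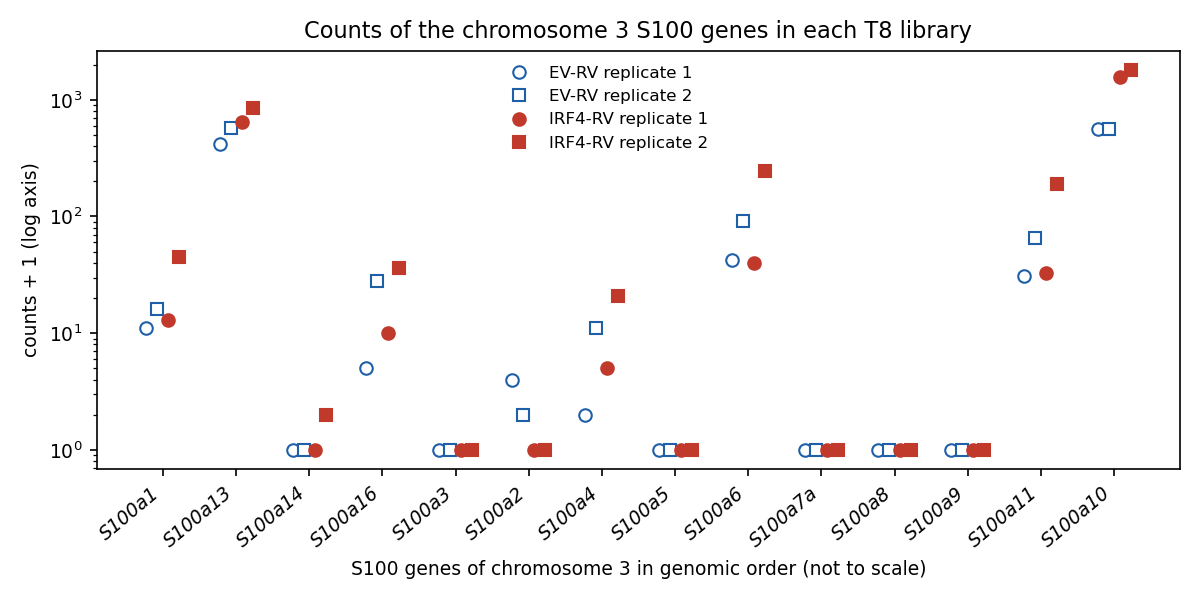
Counts + 1 (vertical log axis) of the 14 S100 genes of chromosome 3 in genomic order (horizontal axis, not to scale) in the 4 T8 libraries, with symbols as in the plot of levels. *S100a10*, with 558 and 563 counts in EV-RV and 1563 and 1808 in IRF4-RV, separates by group, and *S100a6* and *S100a11* are highest in IRF4-RV replicate 2.

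The nearest tested genes on either side of *Vim* (*Trdmt1* and *Hacd1*) and of *Anxa6* (*Tnip1* and *Ccdc69*) did not pass the cutoff, with log2 fold changes between 0.02 and 0.25. Beside *Lgals1*, *Pdxp* fell from 441 and 297 counts to 179 and 161 counts (log2 fold change -1.22 with a standard error of 0.191, edgeR adjusted p = 0.00337). *Nol12* on its other side had a log2 fold change of -0.16 (edgeR adjusted p = 0.343). The nearest tested genes to *Anxa1* lay far off, *Aldh1a7* at 302009 bases and *D030056L22Rik* at 1655000 bases. *Aldh1a7* fell (log2 fold change -0.92, edgeR adjusted p = 0.0475) and *D030056L22Rik* rose (log2 fold change 0.36, edgeR adjusted p = 0.0302). *Bnip2*, 497671 bases from *Anxa2*, rose (log2 fold change 0.23, edgeR adjusted p = 0.0759). *Gm4978* on the other side of *Anxa2*, *Gm18893* and *Exosc9* nearest *Anxa5*, *Gm19739* nearest *S100a6*, *Gm5278* nearest *S100a11* and *Them4* nearest *S100a10* did not pass the cutoff. Their distances ran from 2585 bases for *Gm4978* to 745446 bases for *Them4*.

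Other members of these families were counted in lists. Of 8 other annexin genes, 6 were tested, 1 rose and 0 fell, with a median log2 fold change of 0.39. The 1 that rose was *Anxa7*, from 67.8 and 73.5 CPM with EV-RV to 82.5 and 87.2 CPM with IRF4-RV (log2 fold change 0.26, edgeR adjusted p = 0.0561). Of 12 other S100 genes, 3 were tested and 0 passed, and the median was 0.48. Of 10 other galectin genes 3 were tested, and 2 rose, with a median of 0.92. *Lgals9*, which codes for galectin-9 with its tandem sugar-binding domains, rose from 356 and 378 CPM to 749 and 766 CPM (log2 fold change 1.05, standard error 0.0730, edgeR adjusted p = 5.79e-05). *Lgals8* rose from 20.3 and 21.2 CPM to 33.3 and 29.4 CPM (log2 fold change 0.60, edgeR adjusted p = 0.00495). Per length, the level of *Lgals9* was 172 RPKM with EV-RV and 354 RPKM with IRF4-RV, against 371 and 384 RPKM for *Lgals1*.

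Of 15 other intermediate filament genes, 8 were tested, 0 rose and 4 fell, with a median log2 fold change of -0.35. The 4 were *Nefh*, a neurofilament gene (-1.08, edgeR adjusted p = 0.00843), and the nuclear lamins *Lmna* (-0.63, edgeR adjusted p = 0.0203), *Lmnb1* (-0.36, edgeR adjusted p = 0.0150) and *Lmnb2* (-0.33, edgeR adjusted p = 0.0370), the last named after its value was seen. *Lmnb1*, the most abundant of them, went from 474 and 423 CPM with EV-RV to 352 and 345 CPM with IRF4-RV. *Vim* was the intermediate filament gene past the cutoff in the other direction. Together, 3 of 20 tested family relatives rose and 4 fell, 35% in all, close to the 29.7% of all genes.

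Of 20 genes whose products bind annexins or S100 proteins, 14 were tested, 4 rose and 3 fell (median log2 fold change 0.18). *Myof*, a ferlin of membrane repair, rose from 2.22 and 1.93 CPM to 4.67 and 4.59 CPM (log2 fold change 1.15, edgeR adjusted p = 0.00472). *Sri*, which codes for sorcin, a calcium sensor that binds annexin A7, rose by a log2 fold change of 0.88 (edgeR adjusted p = 0.000266). *Capns1*, the shared small subunit of the calpain proteases, rose by 0.59 (edgeR adjusted p = 0.000996) and *Capn2*, a large subunit, by 0.83 (edgeR adjusted p = 0.0212). *Capn2* was uneven, at 4.8 and 4 CPM with EV-RV and 6.53 and 9.09 CPM with IRF4-RV. Its log2 ratios within replicates 1 and 2 were 0.44 and 1.19. *Cacybp*, which codes for the calcyclin-binding protein that binds S100A6, fell by 0.52 on the log2 scale (edgeR adjusted p = 0.00212). *Tlr4*, a receptor for S100A8 and S100A9, fell by 0.66 (edgeR adjusted p = 0.00758) and *Rasa1* fell by 0.34 (edgeR adjusted p = 0.0316).

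*Ahnak*, which codes for the giant scaffold that binds the annexin A2 and S100A10 complex, had 57.7 and 33.8 CPM with EV-RV and 77.3 and 58.8 CPM with IRF4-RV. Its groups did not overlap, but the log2 fold change of 0.57 missed the cutoff (standard error 0.232, edgeR adjusted p = 0.125). It passed without EV-RV replicate 1 (log2 fold change 1.0, edgeR adjusted p = 0.0069) and without IRF4-RV replicate 2 (0.76, edgeR adjusted p = 1.07e-05), and was 0.24 without EV-RV replicate 2 and 0.34 without IRF4-RV replicate 1. *Myh9*, which codes for the myosin heavy chain that S100A4 binds, overlapped between groups (log2 fold change -0.13, edgeR adjusted p = 0.659).

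Of 17 genes for galectin ligands and for enzymes that build or cap their sugars, 14 were tested, 8 rose and 4 fell (median log2 fold change 0.28). *Igll1*, which codes for λ5, fell from 894 and 1013 CPM with EV-RV to 369 and 407 CPM with IRF4-RV (log2 fold change -1.30, standard error 0.0910, edgeR adjusted p = 5.95e-05). *Lgals1*, whose product binds λ5, had a log2 fold change of 0.05. *Mgat1*, the enzyme that starts hybrid and complex N-glycans, rose from 73.6 and 84 CPM to 239 and 246 CPM (log2 fold change 1.62, edgeR adjusted p = 2.05e-05). *B4galt1*, which adds the galactose that galectins bind, rose by 0.98 (edgeR adjusted p = 0.000203) and *Spn*, the sialomucin CD43, by 0.84 (edgeR adjusted p = 0.000254). *Gcnt1*, which branches core 2 O-glycans, fell by 1.48 on the log2 scale (edgeR adjusted p = 0.00181). *Mgat4b*, an N-glycan branching enzyme, fell by 0.68 (edgeR adjusted p = 0.00518). *Mgat2* fell by 0.65 (edgeR adjusted p = 0.000672) and *Mgat4a* rose by 0.67 (edgeR adjusted p = 0.00285), so the N-glycan enzyme genes moved in both directions.

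Of 11 genes that link vimentin to other filaments or phosphorylate it, 10 were tested, 2 rose and 0 fell (median log2 fold change 0.05). These were the mitotic kinases *Plk1* (0.25, edgeR adjusted p = 0.0426) and *Aurkb* (0.23, edgeR adjusted p = 0.0554). All 22 genes of the actin cortex were tested, 7 rose and 2 fell (median 0.15). *Lsp1*, which codes for a leukocyte actin-binding protein, rose from 12.8 and 12.3 CPM to 63.1 and 55.7 CPM (log2 fold change 2.24, edgeR adjusted p = 9.38e-06). Vinculin, *Vcl*, rose by 1.37 (edgeR adjusted p = 0.000554) and *Tmsb10*, which holds actin monomers, by 0.85 (edgeR adjusted p = 0.000295). *Actn1* (-0.44, edgeR adjusted p = 0.0335) and *Vasp* (-0.44, edgeR adjusted p = 0.00346) fell.

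Of 7 genes that often accompany these families in lymphocytes, all were tested, 3 rose and 2 fell (median log2 fold change 0.57). *Klf2*, a transcription factor of lymphocyte quiescence and traffic, rose from 11.1 and 9.23 CPM to 43.4 and 41.4 CPM (log2 fold change 2.06, edgeR adjusted p = 2.45e-05). *Emp3* rose by 0.79 (edgeR adjusted p = 0.000600) and *Cd44*, the hyaluronan receptor, by 0.67 (edgeR adjusted p = 0.00250). The LIM-domain genes *Crip2* and *Crip1* fell by 0.83 (edgeR adjusted p = 0.00432) and by 0.30 (edgeR adjusted p = 0.0363) on the log2 scale. Over all 66 partner genes tested, 24 rose and 11 fell, 53% in all, against 29.7% of all genes, in lists chosen with earlier results of these data known.

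**Figure D5:**
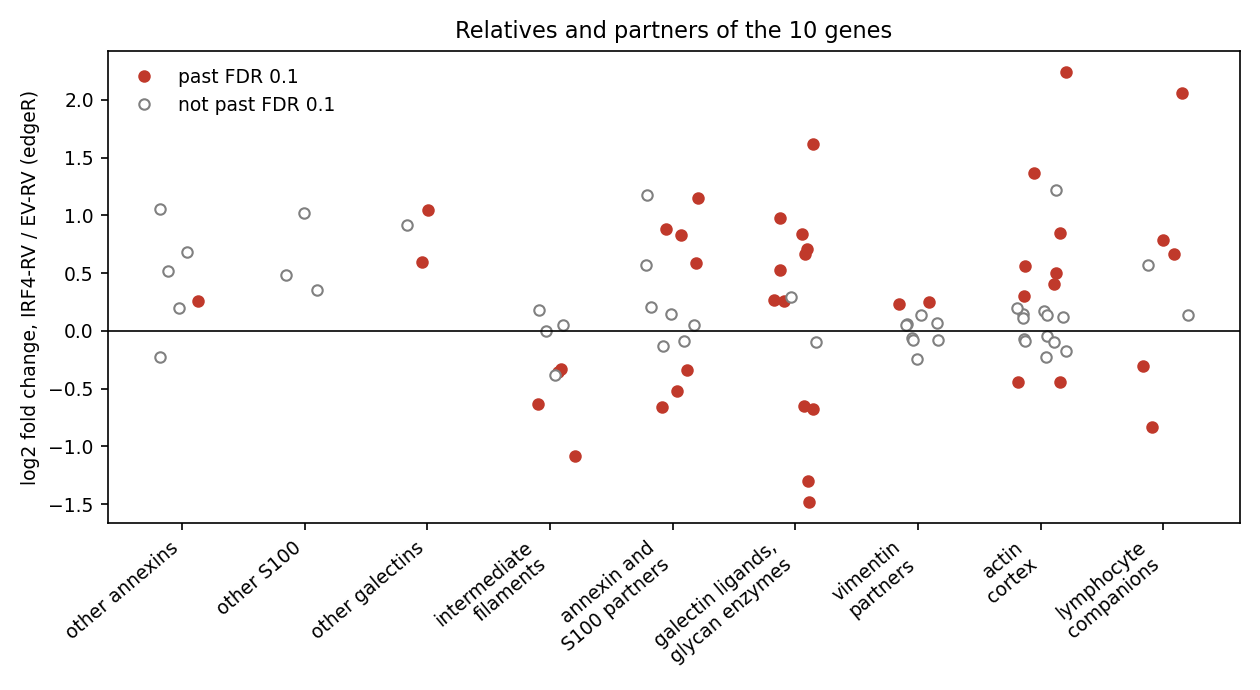
Log2 fold change of IRF4-RV over EV-RV from edgeR (vertical axis) for each tested gene of 9 lists of relatives and partners (horizontal axis), filled where past an FDR of 0.1 and open where not. The filled points of the intermediate filament list are all below 0 (*Nefh* lowest at -1.08), and *Lsp1* at 2.24 and *Klf2* at 2.06 are the highest points.

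Where an annotated gene shares exon bases with one of the 10, reads may not be separable. *S100a4* shares 302 exon bases with *Gm42674* on the same strand, and *Anxa2* shares 98 with the antisense gene *Gm16144*. Both of these had 0 counts in each library. How reads on shared bases were counted is not given, so these 0 counts do not show that the overlap was without effect. The RPKM of *S100a4*, taken over all its 584 exon bases, may be too low for this reason.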

How the data were processed

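Bulk RNAseq libraries were made with the NEBNext Ultra II kit. According to the submitters' processing notes, reads were checked with FastQC (version 0.11.2), aligned to GRCm38 with STAR (version 2.4.0j) and counted with featureCounts. Strand and multi-mapping settings are not given in the sources used here, so overlapping or near-identical genes are uncertain. The authors deposited raw counts for 55359 Ensembl identifiers, of which 52083 were matched to GENCODE M21 and 3276 were not.

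Genes passing filterByExpr were tested across the 4 libraries by the quasi-likelihood F test of edgeR 4.0.16 (R 4.3.3) after TMM scaling, with p-values adjusted over all genes tested after Benjamini-Hochberg and a cutoff of 0.1 (FDR). CPM and RPKM use TMM-scaled library sizes. The standard error is the log2 fold change divided by the square root of F. In a test on simulated data the share of false calls was above the nominal FDR. Far fewer genes were changed there than were called here, so adjusted p-values may be too small here. That would weigh most on those near the cutoff. Lists are counted and not tested as sets.

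The 10 genes, the lists and the tests were chosen with earlier results of these data known. Named are the 10 genes, the nearest tested neighbours, the S100 cluster, and from each list the genes past the FDR, up to 3 in each direction, plus *Igll1*, *Ahnak*, *Myh9*, *Cacybp* and *Capns1*. *Lmnb2*, *Lgals3*, *Fpr1*, *Fpr2*, *Mgat2*, *Mgat4a* and the marker genes printed with their values were named after their values were seen. Alternatives were DESeq2 1.42.0 on the same genes, its size factors, library size alone, other filters, an FDR of 0.05, the replicate number as a block, and each library left out. Each replicate number alone was added after seeing the data.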

Additional observations from a re-analysis of the deposited data

How the results depend on the processing

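Over 11 settings, the main one included, the log2 fold change of *Vim* ranged from 1.13 to 1.23. It was 1.38 to 1.52 for *S100a10* and 0.46 to 0.60 for *Anxa6*. Each setting re-used libraries on which these genes were chosen, so the ranges describe the processing and are no independent support. The count of the 10 genes called higher was 4, and it was 7 when all genes with at least 1 count were tested and 3 to 7 when single libraries were left out, 7 being without IRF4-RV replicate 1. The count called lower was 0, and 0 to 1 with a library left out, 1 being *Anxa1* without IRF4-RV replicate 2. For the 20 family relatives, 3 were called higher, 5 with all genes of at least 1 count, and 2 to 7 with a library left out, 7 being without IRF4-RV replicate 1. With a library left out, log2 fold changes ranged from -0.71 to 0.04 for *Anxa1*, -0.21 to 1.80 for *Anxa2*, -0.52 to 3.34 for *S100a4*, -0.83 to 1.69 for *S100a6*, -0.64 to 1.79 for *S100a11*, -0.05 to 0.14 for *Lgals1*, -0.57 to 1.61 for *Lgals3* and -0.37 to 0.17 for *Myh9*. These fits leave 1 group with a single library, assumed to vary like the other group. The calls of *Anxa7*, *Aurkb* and *Plk1* were each lost in 3 of these 4 fits, and with library size alone (adjusted p = 0.136, 0.172 and 0.14), and those of *Rasa1* and *Actn1* in 2 of the 4. *S100a13* ranged from 0.22 to 0.77 and *Ahnak* from 0.24 to 1.0 with a library left out. Each was past the cutoff in 2 of those fits and with all genes of at least 1 count, and *S100a13* also with DESeq2 and with the 1 CPM minimum. *Lgals1* was at -0.04 with library size alone. *S100a4* had no value at a minimum of 1 CPM in 2 libraries, and no adjusted p from DESeq2. The cause of these changes was not tested.

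The labels give the groups the same replicate numbers, but nothing says that a number marks a shared day or batch, so the libraries were not paired. The deviations of same-numbered libraries correlated across genes at 0.28. With the replicate number as a block, 3426 genes were higher and 2968 lower, 7 of the 10 genes were higher and 1 (*Anxa1*) lower, and 6 family relatives were higher. *S100a13* and *Ahnak* were past the cutoff with the block.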
